A study of Mus musculus with 6 samples.

Results

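Cxcl9, Cxcl10 and Cxcl11 encode the 3 chemokines that bind the receptor CXCR3. They were chosen by name, as the rows of the authors' deposited table that carry these symbols, and all 3 were found among its 570 rows. The series covers osteoclasts, the multinucleated cells that resorb bone, induced from cells of wild-type C57BL/6 mice with RANKL and M-CSF, the cytokines that drive their differentiation. Its labels give 3 control samples and 3 samples given interferon-gamma (IFN-γ) during differentiation, all at day 3, and all received RANKL and M-CSF. Values could be matched by name to the 3 control samples only (columns CTRL1 to CTRL3, here control 1 to 3). The match rests on the sample titles, since the labels call these libraries BLANK1 to BLANK3, and it is uncertain whether the table was made from these samples. A further 3 columns, named FKD1 to FKD3, match no sample label and were not used in any step, so no comparison between groups was made. Nothing in the labels says that the controls were separate cultures or animals, and the spread between them may be technical.

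CXCR3 ligands are small secreted proteins that attract activated T cells and natural killer cells, which carry the receptor. Interferon-gamma induces all of them, and type I interferons and tumour necrosis factor also raise Cxcl10. They are known as low in resting cells, which is why they serve widely as readouts of interferon exposure. Cxcl9, also called Mig, is regarded as the most dependent on interferon-gamma. Cxcl11 differs in mice, since the C57BL/6 strain carries a frameshift in this gene and is known to make no functional CXCL11 protein.

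The genes lie together on mouse chromosome 5, in the order Cxcl9, Cxcl10, Cxcl11, all on the minus strand. In the GRCm38 annotation Cxcl9 and Cxcl10 are protein coding, whereas Cxcl11 is a transcribed pseudogene in RefSeq and a polymorphic pseudogene in GENCODE M21. Art3, on the plus strand, spans Cxcl10 and Cxcl11, and its exons share 133 of the 2252 exonic bases of Cxcl10. The processed pseudogene Gm2673, also on the plus strand, shares 1582 of the 3794 exonic bases of Cxcl11, and Cxcl9 shares 0 of its 3016 with any gene. The labels do not state whether reads were counted by strand, so the share of opposite-strand reads in the Cxcl10 and Cxcl11 values is unknown. Neither Art3 nor Gm2673 was among the 570 rows.

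The 250 bases upstream of the start site were available for Cxcl9 and Cxcl10 and are shown because this is where interferon and NF-kB signals are known to act on these genes. The sequences are from RefSeq on GRCm38.p6, minus strand, at chr5:92328080-92328329 for Cxcl9 and chr5:92348890-92349139 for Cxcl10. Capitals mark matches on either strand to the core of the interferon-stimulated response element (ISRE, GAAANNGAAA) or to the NF-kB consensus.
Cxcl9: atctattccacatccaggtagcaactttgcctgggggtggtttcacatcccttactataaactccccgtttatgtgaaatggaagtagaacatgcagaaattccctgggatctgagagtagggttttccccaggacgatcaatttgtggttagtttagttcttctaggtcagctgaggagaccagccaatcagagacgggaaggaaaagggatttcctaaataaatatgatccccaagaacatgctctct
Cxcl10: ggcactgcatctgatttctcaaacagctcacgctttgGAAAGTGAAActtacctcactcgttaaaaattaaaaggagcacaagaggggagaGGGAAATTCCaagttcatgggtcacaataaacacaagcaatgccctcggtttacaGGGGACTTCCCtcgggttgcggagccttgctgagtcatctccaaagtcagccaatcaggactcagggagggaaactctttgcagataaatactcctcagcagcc

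The Cxcl10 window held 1 ISRE core, between 213 and 204 bases upstream of the start, and NF-kB consensus matches at 159 to 150, 104 to 95 and 103 to 94 bases upstream. The last 2 of these overlap and read as 1 run of capitals. The Cxcl9 window held 0 exact matches to either pattern, which describes this window only. Near matches were not searched for, so sites that resemble these patterns may be present. Across all 32851 promoter windows of the same length, 2.98% held an ISRE core and 7.25% an NF-kB consensus match.

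Cxcl9 was high in the control columns and Cxcl10 moderately so, while Cxcl11 was low. Values are the authors' normalised expression signal, whose unit the table does not name. Controls 1, 2 and 3 held Cxcl9 at 102.5, 107.6 and 107.9, a mean of 106.0 ± 2.997 (SD, n = 3). These columns lay within 1.05-fold of one another, with control 1 the lowest. Cxcl10 stood at 21.9, 23.1 and 24.3 in controls 1, 2 and 3, a mean of 23.1 ± 1.23 (SD, n = 3). Control 1 was again the lowest, and the columns spanned 1.11-fold. Cxcl11 stood at 0.458, 0.523 and 0.370, a mean of 0.450 ± 0.0767 (SD, n = 3). Here control 2 was the highest and control 3 the lowest, with a span of 1.41-fold, so the columns did not fall in the order seen for the other genes.

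**Figure D1:**
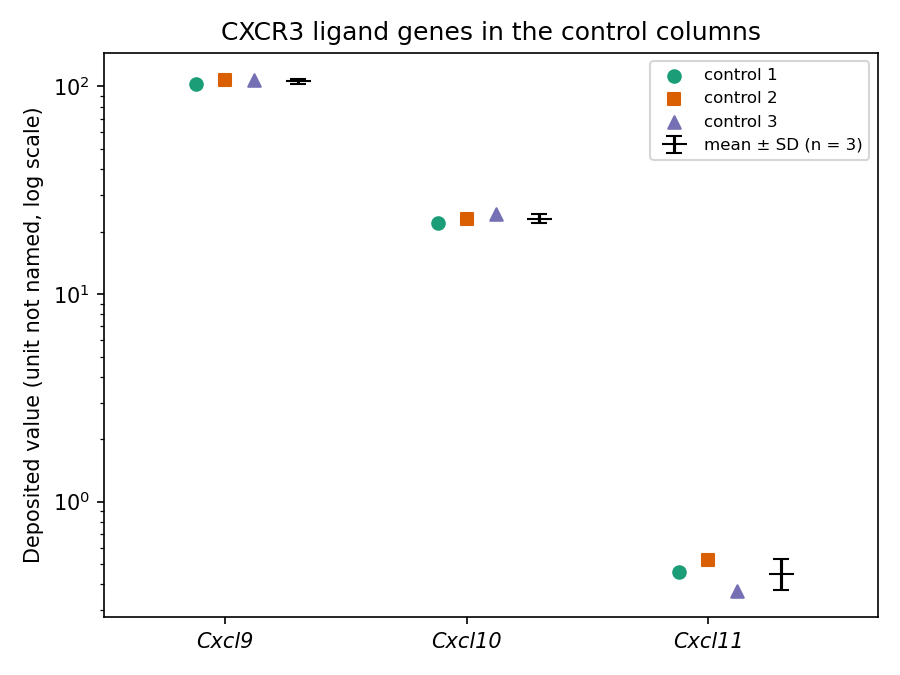
Deposited values (unit not named, log axis) of Cxcl9, Cxcl10 and Cxcl11 in the 3 control columns, each column with its own symbol, and the mean ± SD (n = 3) beside them. Cxcl9 sits near 106.0, Cxcl10 near 23.1 and Cxcl11 near 0.450, and the points of different genes do not overlap.

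The order Cxcl9, Cxcl10, Cxcl11 held in each control column, and the ranges of neighbours in that order did not overlap. The lowest Cxcl9 value was 4.21-fold above the highest Cxcl10 value, and the lowest Cxcl10 value was 41.8-fold above the highest Cxcl11 value. No test was made of this order. A comparison of levels between genes also needs values per transcript length, and the table does not say whether its values are. If they are not, dividing by the length of the principal GENCODE transcript (2889 bases for Cxcl9, 1094 for Cxcl10 and 1581 for Cxcl11) lowers the log2 ratio of Cxcl9 to Cxcl10 from 2.20 to 0.80, and the order stays the same.

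Within a column, Cxcl9 was 4.68, 4.66 and 4.43 times Cxcl10 in controls 1, 2 and 3, a mean ratio of 4.59 ± 0.140 (SD, n = 3). This ratio was the steadiest, with a coefficient of variation of 3.06%, close to the 2.83% of Cxcl9 itself and below the 5.32% of Cxcl10. Cxcl10 was 47.8, 44.1 and 65.8 times Cxcl11, a mean of 52.6 ± 11.6. Cxcl9 was 224, 206 and 291 times Cxcl11, a mean of 240.3 ± 45.1. Control 3 was the highest for both ratios to Cxcl11, as it held the lowest Cxcl11 value. Of the summed value of the 3 genes, Cxcl9 made up 81.8% ± 0.406, Cxcl10 17.8% ± 0.464 and Cxcl11 0.348% ± 0.0619 (SD, n = 3).

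**Figure D2:**
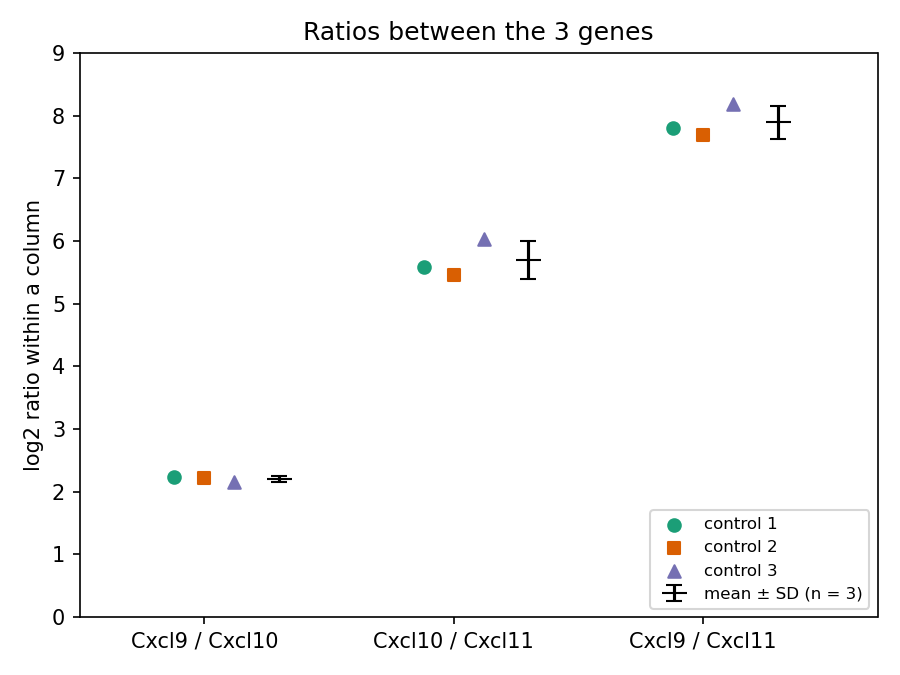
log2 ratios between the 3 genes, computed within each control column, with the mean ± SD (n = 3) beside the points. The ratio of Cxcl9 to Cxcl10 lies at 2.20 ± 0.04 on the log2 scale, while both ratios to Cxcl11 spread more widely, at 5.69 ± 0.30 and 7.89 ± 0.26.

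The spread between columns was like that of other rows of this selected table at the same level. It need not be like that of genes at this level in general. For Cxcl9 the coefficient of variation was 2.83%, beside a median of 3.46% over the 18 rows with a mean within 2-fold of it. For Cxcl10 it was 5.32% beside 6.55% over 38 rows, and for Cxcl11 17.0% beside 19.5% over 182 rows. Sequencing depth is unknown, so no counting error can be given for Cxcl11.

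**Figure D3:**
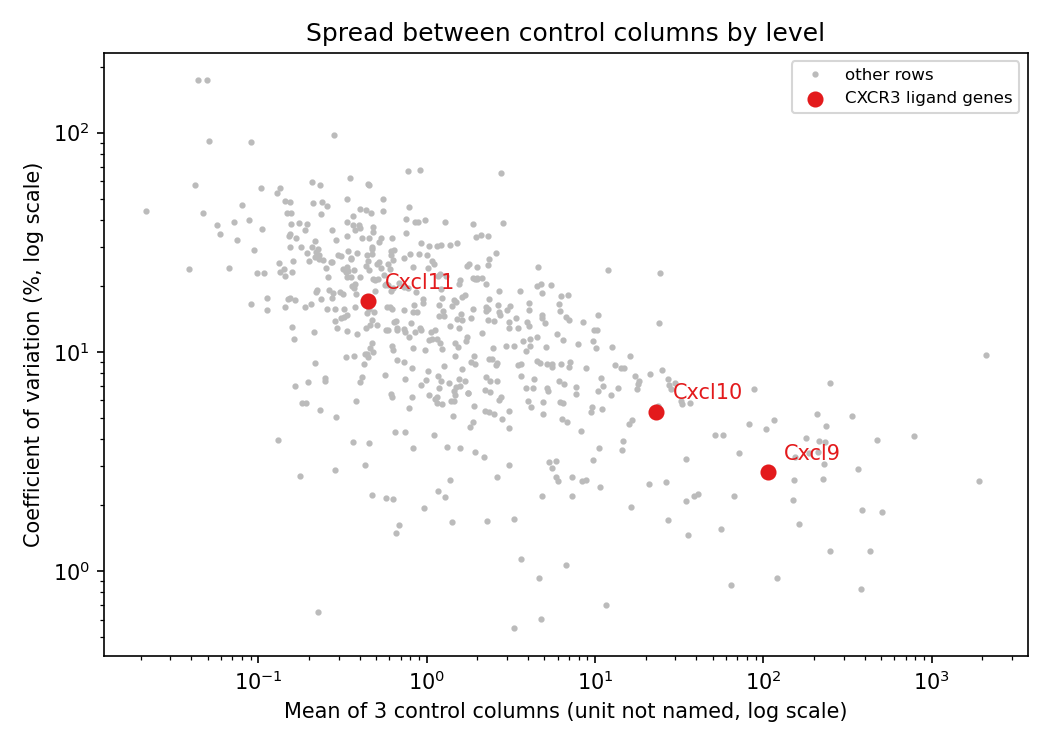
Coefficient of variation between the 3 control columns (%, log axis) against the mean value (unit not named, log axis) for the listed rows, with the 3 CXCR3 ligand genes in red. The red points lie inside the cloud of rows of similar level, at 2.83% for Cxcl9, 5.32% for Cxcl10 and 17.0% for Cxcl11.

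Set against the low level known for cells without interferon, the columns labelled control held Cxcl9 and Cxcl10 well above the middle of the table. Cxcl9 ranked 28 of 570 by its mean, above 95.1% of the rows and 89.5-fold over the median row mean of 1.18. Cxcl10 ranked 56, above 90.2% of the rows and 19.5-fold over that median. Cxcl11 ranked 412, above 27.7% of the rows, at 0.380 times the median. In the separate columns the rank of Cxcl9 was 29, 28 and 28, that of Cxcl10 56, 54 and 56, and that of Cxcl11 404, 388 and 443. Together the 3 genes made up 0.917%, 0.985% and 0.982% of the summed values of controls 1, 2 and 3.

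These ranks are places within a selected list and not places in a transcriptome. By its title the table lists differentially expressed genes, and the sources used here give neither the comparison nor the inclusion rule. The control labels name no interferon treatment. No column of another condition matched a label, so whether these levels exceed those of unstimulated osteoclasts was not tested.

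**Figure D4:**
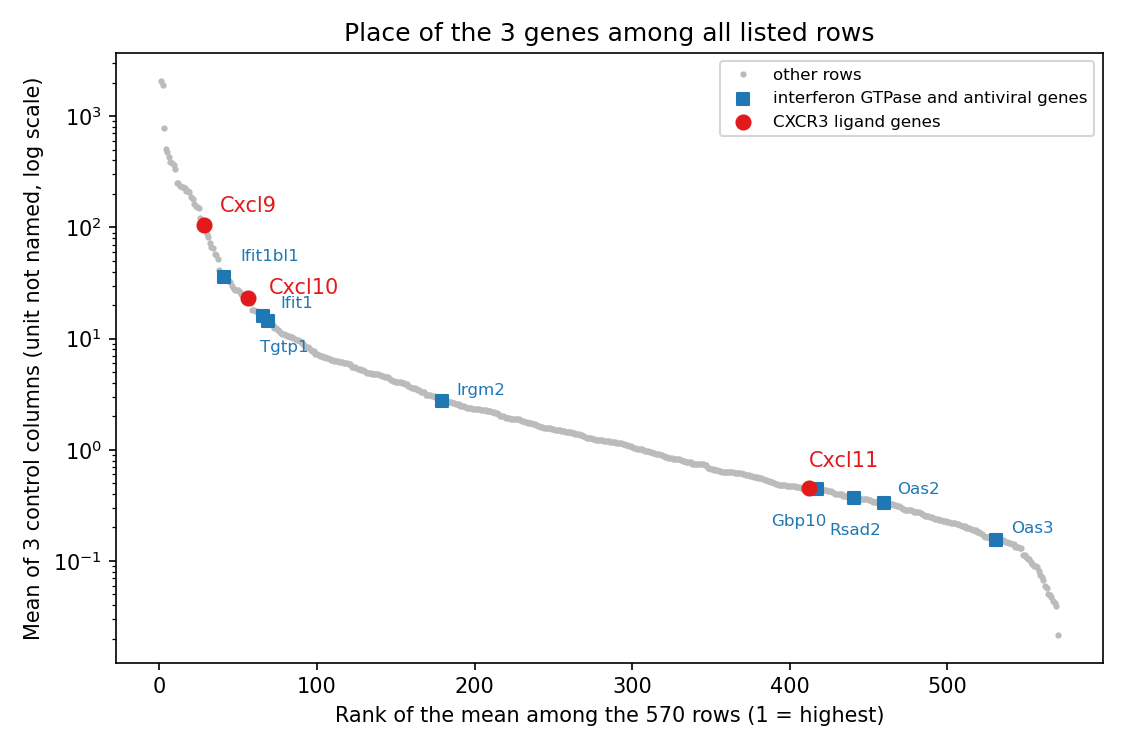
Mean value over the 3 control columns (unit not named, log axis) of the 570 rows against rank, with the CXCR3 ligand genes as red circles and 8 interferon-inducible GTPase and antiviral genes as blue squares. Cxcl9 ranks 28, Cxcl10 56 and Cxcl11 412.

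Among other chemokines the table held few genes. The 3 CXCR3 ligands were the members found of 15 CXC chemokine ligands listed. Of 20 CC ligands, 2 were found: Ccl2, which attracts monocytes, at 2.32 ± 0.365 and Ccl28, a chemokine of mucosal epithelium, at 0.439 ± 0.108 (SD, n = 3). Ccl2 stood at 2.69, 2.33 and 1.95 in controls 1, 2 and 3, lowest where Cxcl10 was highest. Chemokine receptors gave 0 of 21, so Cxcr3 itself was not among the rows. Absence from a selected table is not absence of expression.

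The lists of interferon and NF-kB signalling had no member among the rows. The lists held 10 interferon genes including Ifng, 6 interferon receptors, 17 genes of interferon signalling, 14 of NF-kB signalling and 19 of antigen presentation that interferon-gamma is known to raise, with 0 found for each. Across the 11 lists of ligands, receptors, signalling and co-induced genes, 15 of 185 genes (8.11%) were in the table, the CXCR3 ligands included. That share is no background, since the ligands were chosen as rows. The share of all genes that the table lists was not computed. The lists with 0 found are therefore not read as shortfalls, nor the lists with members found as an excess. By mean, Cxcl9 was the highest of these 15, Cxcl10 ranked 3 and Cxcl11 ranked 9. Of 13 inflammatory cytokines 2 were found: Tnf, which is known to raise Cxcl10 through NF-kB, stood at 3.33, 4.20 and 4.31 in controls 1, 2 and 3, and Il17a had a mean of 0.438 ± 0.194 (SD, n = 3). Control 1 was lowest for Tnf, Cxcl9 and Cxcl10 and highest for Ccl2. With 3 columns no relation can be tested.

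The other listed interferon-inducible genes found in the table were lower than Cxcl9. Interferon-inducible genes outside the lists were not searched for. Of 50 listed GTPase and antiviral genes 8 were found, a number read neither as an excess nor as a shortfall. All 8 were below Cxcl9 in every column, and 7 of them also below Cxcl10. The exception was Ifit1bl1, a paralogue of the antiviral gene Ifit1, at 35.3, 35.3 and 36.2 in controls 1, 2 and 3. Ifit1, which binds foreign RNA, was at 15.8 ± 0.745, and Tgtp1, a GTPase acting against intracellular pathogens, at 14.5 ± 0.518 (SD, n = 3). Irgm2 was at 2.75 ± 0.172. The remaining 4, Gbp10, Rsad2, Oas2 and Oas3, had means below 1, as Cxcl11 did, at 0.444, 0.369, 0.334 and 0.156. Ifit1, Ifit1bl1 and Tgtp1 have paralogues of similar sequence, and how reads were divided among them is uncertain.

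The ISRE core of the Cxcl10 window also occurred in the windows of these genes. It was in 6 of the 6 that have an entry in the promoter table, beside 5.49% of the 401 genes of the deposited table with an entry. The genes were known as interferon-inducible when listed, so this is a description. They are shown as 30 bases around the match nearest the start that leaves 10 bases on each side, in the sense of the gene (RefSeq, GRCm38.p6), with the match in capitals. A match read on the opposite strand appears as TTTCNNTTTC.
Cxcl10 (chr5:92349083-92349112, minus): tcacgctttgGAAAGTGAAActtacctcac
Tgtp1 (chr11:48992304-48992333, minus): tccaggaatcGAAACTGAAAcctacctgac
Irgm2 (chr11:58214903-58214932, plus): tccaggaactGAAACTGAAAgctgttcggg
Oas3 (chr5:120777715-120777744, minus): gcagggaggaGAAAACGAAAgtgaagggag
Ifit1 (chr19:34640794-34640823, plus): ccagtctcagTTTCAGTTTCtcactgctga
Ifit1bl1 (chr19:34599431-34599460, minus): actctgtaggTTTCATTTTCtgtaagttgg
Rsad2 (chr12:26456553-26456582, minus): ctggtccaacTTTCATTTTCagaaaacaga

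These genes span a wide range of control values, from 0.156 for Oas3 to 35.6 for Ifit1bl1. Whether carrying the core goes with the level was not tested. Cxcl9, the highest of the listed interferon-inducible genes found, had no match in its window. The known interferon-gamma element of Cxcl9 has another sequence and was not searched for.

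The rows closest to each CXCR3 ligand by Euclidean distance of log2(value + 1) over the 3 control columns were close in level. The nearest to Cxcl9 were Clk1, a splicing kinase, at 103.2 ± 4.60 (distance 0.126), then Csta1, a cysteine protease inhibitor, at 115.8 ± 5.67 and the cornified envelope gene Lce1l at 120.5 ± 1.12 (SD, n = 3). Those nearest to Cxcl10 were Bpifb9b at 23.8 ± 1.35 (distance 0.0741), Fhl1, a muscle LIM protein, at 21.3 ± 1.70 and Sprr2g, another cornified envelope gene, at 25.0 ± 2.06. Cxcl11 had as neighbours the lipid droplet protein gene Plin5 at 0.445 ± 0.0722 (distance 0.0468), Phkg1, a subunit of the muscle phosphorylase kinase, at 0.461 ± 0.0611 and Lpin1, a phosphatidate phosphatase, at 0.477 ± 0.0663. With 3 columns this measure ranks rows mainly by level.

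The labelled cell type was checked against marker lists, because the level of a chemokine depends on the cells present. Of 15 osteoclast markers 1 was among the rows, the carbonic anhydrase gene Car2, at 10.9 ± 0.829 (SD, n = 3); the defining markers Acp5, Ctsk, Calcr and Nfatc1 were not among them, and macrophage markers gave 0 of 12. T and NK cell markers, from cells that answer to these chemokines, gave 2 of 21: Gzma, a lymphocyte protease, at 0.606 ± 0.144 and Cd247, a T-cell receptor chain, at 0.341 ± 0.0981. The summed level of these 2 lay between 0.707 and 1.12 over the columns. T-cell genes outside the list were also in the table. Among them were Ctla4 at 1.84 ± 0.165, Cd7 at 1.27 ± 0.187 and Pdcd1 at 0.443 ± 0.123. Genes outside the macrophage list that macrophages can express were there too. Among those were Retnla at 5.21 ± 0.458, Trem2 at 2.00 ± 0.429 and Chil3 at 1.21 ± 0.234. All of these were named after their values were seen, and no full search outside the lists was made. Keratinocyte markers gave 5 of 25 with a summed level of 2998 to 3369, led by Mt4, and skeletal muscle markers 14 of 20 with 668 to 689. Fibroblast markers gave 0 of 10, endothelial markers 2 of 10, dendritic cell markers 1 of 11 and neutrophil markers 4 of 13, the last carried by Lcn2 at 66.7 ± 1.46, with Mmp8 at 0.731, Ngp at 0.640 and Camp at 0.282 (listed at 0 in control 1). Because the table is a selection, the few listed osteoclast and macrophage markers found neither bear out nor refute the osteoclast label. The columns are called by their names. The share of all genes that the table lists was not computed. So 1 of 15 and 0 of 12 are not read as shortfalls, nor 14 of 20 or the other counts as an excess. The unit is not named, so the keratinocyte and muscle values cannot be set against levels known from osteoclasts. The source of these values was not tested. The part that epithelial, muscle or immune cells have in the Cxcl9 and Cxcl10 values was not tested. In bulk RNA, fewer cells of a type and less RNA per cell cannot be told apart.

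**Figure D5:**
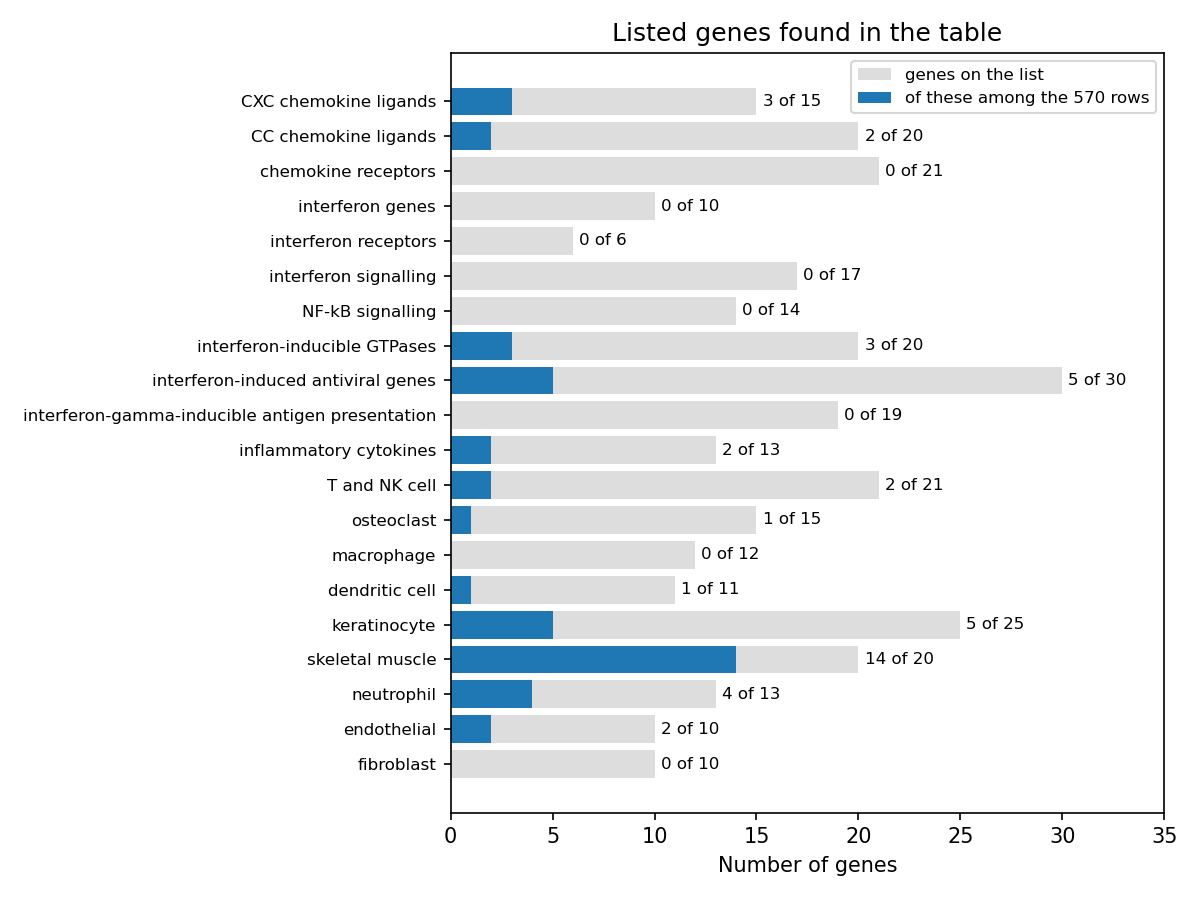
Number of genes on each list (grey bars) and how many of them are among the 570 rows (blue bars). Chemokine receptors, interferon genes, interferon receptors, interferon signalling, NF-kB signalling, antigen presentation, macrophage and fibroblast lists have 0 members, and the CXC ligand list has 3 of 15.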

How the data were processed

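Libraries were made from bead-captured poly(A) RNA, per the labels' protocols. Per the submitters' processing notes, GRCm39, GRCh37 and Bowtie2 2.4.4 are named, with no role stated and with the quantification tool not given in the sources used here. Deposited values are a normalised expression signal that is never negative and whose unit is not named. Depth is unknown. Columns were matched to samples by name; 3 of the value columns matched no label and were not used, so 0 columns belong to the interferon-gamma group.

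From the values were computed the mean, SD and rank over the 3 control columns, ratios within a column without a pseudocount, and distances of log2(value + 1). No statistical test was run. The ranking and distance code was tested on simulated data. The members and gene lists were chosen with earlier results of these data known. Named genes were the members, the 3 nearest rows with a gene symbol for each, and list members found in the table. Ctla4, Cd7, Pdcd1, Retnla, Trem2 and Chil3 are outside these rules and were added after their values were seen. Annotation was GENCODE M21 and RefSeq on GRCm38, another build than GRCm39, used for names, lengths, overlaps and promoter sequences. Alternatives were other pseudocounts, medians, transcript lengths, row filters, column scaling and leaving out each column. Python 3.11.15, pandas 2.3.3, numpy 2.4.6 and matplotlib 3.10.9 were used.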

Additional observations from a re-analysis of the deposited data

How the results depend on the processing

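No paired analysis was possible because no column matched an interferon-gamma sample. Of 53 values under alternatives, 41 stayed within 1 SD of the columns, and 0 of the 24 that are log2 ratios changed sign. Much of this tally was fixed in advance and is not read as stability. With so few columns, leaving out 1 column or taking the median cannot move a mean level or log2 ratio by 1 SD. The ranges of the genes did not overlap, so only division by transcript length could have changed the sign of a log2 ratio. A pseudocount of 1 moved the log2 ratio of Cxcl9 to Cxcl10 from 2.20 to 2.15, of Cxcl10 to Cxcl11 from 5.69 to 4.05 and of Cxcl9 to Cxcl11 from 7.89 to 6.21; a pseudocount of 1 exceeds every Cxcl11 value. With 0.1 the last was 7.60. Division by principal transcript length gave 0.80, 6.22 and 7.02 for these ratios, and by longest transcript length 1.83, 6.46 and 8.29. The longest transcripts and the column scaling were added after the data were seen. Scaling the columns to a common median moved the levels of Cxcl9, Cxcl10 and Cxcl11 to 106.1, 23.1 and 0.452. With 1 column left out, the rank of Cxcl9 was 28 to 29, of Cxcl10 55 to 56 and of Cxcl11 396 to 425; their levels were 105.1 to 107.7, 22.5 to 23.7 and 0.414 to 0.491. Among rows with a gene symbol Cxcl11 ranked 372, since fewer rows were ranked. It has no rank among rows with a mean of at least 1. Unknown depth leaves the counting error of Cxcl11 unknown.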
